A study of Homo sapiens with 4 samples.

Results

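The caveolae coat genes are 7 genes whose products build and hold the small flask-shaped pits of the plasma membrane called caveolae: CAV1, CAV2, CAVIN1, CAVIN2, CAVIN3, EHD2 and PACSIN2. Their cytidine positions were taken by gene name from the authors' deposited tables of sites, with each position counted once per gene. The tables held 40 such positions after TGF-β1 and 11 in control, of 11735 positions after TGF-β1 and 8112 in control over all genes. Of the 7 genes, 6 were listed in at least 1 table, of 6112 listed genes in all, and CAV2 was in neither. The genes were picked with these counts known, CAVIN1 because of them, that is, the group was chosen by the number of listed positions per gene, so every count below describes the tables and carries no test.

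The samples came from LX-2, an established human line of hepatic stellate cells, labelled wild type. The TGF-β1 group was 2 libraries of cells given human recombinant TGF-β1 at 5 ng/ml, from RNA taken after 24 h. The control group was 2 libraries of untreated LX-2 cells, and in both groups the libraries are labelled as biological replicates. The libraries come from polyadenylated RNA and the NaBH4 (sodium borohydride) method, which reduces N4-acetylcytidine (ac4C) so that reverse transcriptase can record T in place of C. The study asked how ac4C differs after TGF-β1. Each group has 1 table and each listed position 1 value, which leaves no replicate error for any value. None of the libraries is labelled as made without NaBH4.

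Caveolins are hairpin membrane proteins that insert into the inner leaflet and assemble into the scaffold of the pit. Cavins are soluble proteins that coat the scaffold from the cytosol, with CAVIN1 required for caveolae to form. EHD2 is a membrane-binding ATPase that sits at the neck and keeps caveolae at the surface, and PACSIN2 is an F-BAR protein that bends membrane there. Caveolae flatten when membrane is stretched, and caveolin-1 has been tied to the internalisation of TGF-β receptors. Acetylated cytidine in messenger RNA is written by NAT10 and has been linked to RNA stability and translation.

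The measured quantity is called the mismatch difference here, the value the authors list per cytidine, printed in percent. What was subtracted from what is not stated. The tables list positions of at least 1.00% and an authors' p-value below 0.05, and an unlisted cytidine has no value. It can be unmodified, below the limits or uncovered, and depth is unknown. Sequence around a member's position was at hand only for a coding cytidine of CAV1, the only member position inside a RefSeq promoter window. This cytidine is listed after TGF-β1 only and lies close to the start of the protein. The sequence is given from the window of GRCh38.p14, chr7:116525056-116525085, plus strand, with the listed cytidine in capitals.
CAV1 position 116525080: ggccagcatgtctgggggcaaataCgtaga
Counted from the first ATG of this stretch, the listed cytidine is base 3 of codon 6, and a G follows it. Over all genes, 213 listed positions after TGF-β1 and 155 in control fell in such windows, and all of them were a C on the strand of the gene at the printed coordinate. Of these, 62.0% after TGF-β1 and 55.5% in control were followed by G, against 31.3% and 29.6% of all C in the same windows. The windows hold 250 bases before and 50 after a gene's start, so all C includes cytidines outside the transcript. The shares thus cover unlike cytidines and are no measure of a preference for C before G.

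More cytidines were listed after TGF-β1 in most of the coat genes. CAV1, CAVIN1, CAVIN3, EHD2 and PACSIN2, 5 of the 6 listed members, gained positions with TGF-β1, and CAVIN2 had fewer. Over all 6112 listed genes, 51.2% had more and 35.3% had fewer. The 40 positions after TGF-β1 and 11 in control give a ratio of 3.64, with 1.46 over all genes. The TGF-β1 table thus held 78.4% of the 51 listings (exact 95% binomial interval 64.7 to 88.7%), with 59.3% over all genes. Intervals of this kind cover counting error only, and positions of 1 gene share its reads. The 51 listings are 44 distinct positions, since shared ones count in both tables. For genes picked with these counts known, the intervals are no test against the share over all genes. Without CAVIN1 the members had 23 positions after TGF-β1 and 9 in control, and without CAVIN1 and EHD2 they had 13 and 8. Those last counts have a ratio of 1.63. The median gain with TGF-β1 was 2 positions over the 6 listed members and 1 over all listed genes. How far transcript level or the number of reads moves with these counts was not tested.

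**Figure D1:**
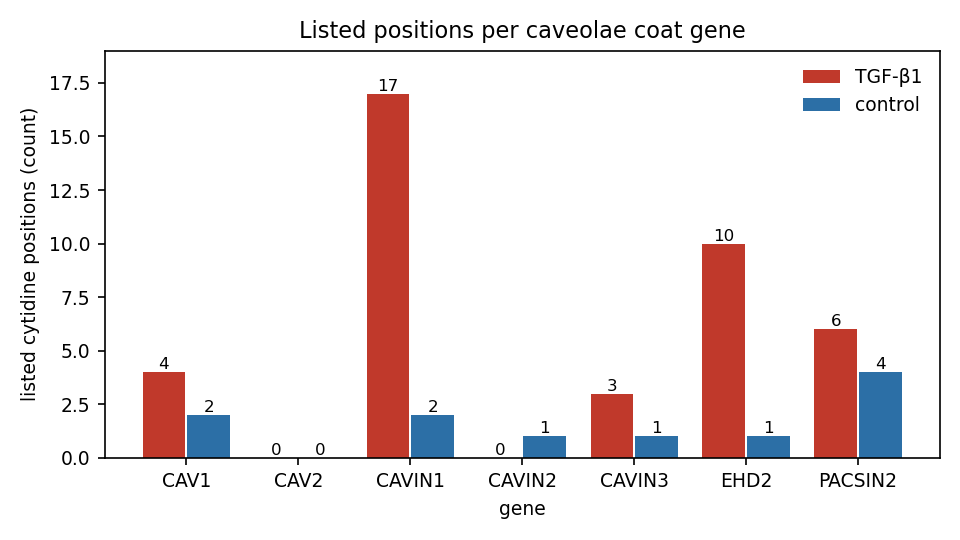
Bars give the number of listed cytidine positions (vertical axis, count) in each of the 7 caveolae coat genes (horizontal axis), with TGF-β1 in red and control in blue. CAVIN1 with 17 positions against 2 and EHD2 with 10 against 1 stand above the other genes, and CAV2 has 0 in both.

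CAV1 encodes caveolin-1, the main scaffold protein of caveolae outside striated muscle. The gene (ENSG00000105974, hg38 chromosome 7 from 116524994 to 116561179, plus strand) had 4 positions after TGF-β1 and 2 in control. The cytidine shown above, 86 bases from the 5′ end of the gene, had 5.59% after TGF-β1 and was absent from the control table. At position 116526587, annotated as 5′UTR in the transcripts listed for it, the mismatch difference was 4.97% after TGF-β1 and 3.95% in control. The neighbouring cytidines 44 and 45 bases further on lay side by side in coding sequence and went to different tables. Position 116526631 had 3.04% after TGF-β1, with an authors' p-value of 0.00947, and position 116526632 had 1.91% in control, with an authors' p-value of 0.0015. The last CAV1 position, 116559538 in the 3′UTR, had 3.72% after TGF-β1 with an authors' p-value of exactly 0. CAV2 encodes caveolin-2, which forms hetero-oligomers with caveolin-1, and had 0 positions in both tables.

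Over both tables together CAVIN1 had more listings than any other coat gene, 17 of the members' 40 after TGF-β1 and 2 of the 11 in control, where PACSIN2 had 4. It encodes cavin-1, also known as PTRF, which trimerises and binds the cytosolic face of caveolae. The gene (ENSG00000177469, chromosome 17 from 42402449 to 42423256, minus strand, 20808 bases) had 17 positions after TGF-β1 and 2 in control. The TGF-β1 table held 89.5% of these listings (exact 95% binomial interval 66.9 to 98.7%). Both control positions were also in the TGF-β1 table, so they count on both sides. As CAVIN1 was picked for these counts, the interval is no test. Of the 6112 listed genes, 6 gained more positions than CAVIN1, and 0.164% had at least 15 more after TGF-β1. All 17 positions were annotated to CAVIN1 alone, on 1 transcript, as coding sequence (12) or 3′UTR (5).

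Along CAVIN1 the positions fell into a block near the 5′ end and a block near the 3′ end, with 17451 bases free of listed positions between them. Distances are genomic, with introns included, and all CAVIN1 positions were annotated as coding sequence or 3′UTR, with coding ones on both sides of the gap. Exon bounds were not at hand, so how far the gap is intron was not tested, and the blocks are no measure of clustering along the transcript. The 5′ block spanned 258 bases, from 295 to 553 bases from the 5′ end of the gene, and held 4 positions after TGF-β1 and 1 in control, all coding. In 5′ to 3′ order, position 42422961 had 5.68% and position 42422863 had 1.45% after TGF-β1. Position 42422790 was in both tables, with 1.34% after TGF-β1 and 1.02% in control, and 1.82% of TGF-β1 and 0.111% of control positions over all genes were lower. The last of the block, 42422703, had 10.4% after TGF-β1, the highest mismatch difference in the gene. It lay 87 bases from the shared position and was not in the control table.

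The 3′ block of CAVIN1 spanned 2072 bases and held 13 positions after TGF-β1 and 1 in control. Its 8 coding positions lay within the first stretch of that block, from 18004 to 18461 bases from the 5′ end of the gene. After TGF-β1, positions 42405252 and 42405243, which are 9 bases apart, had 2.60% and 3.21%. Positions 42405056 and 42405054, which are 2 bases apart, had 2.92% and 4.74%. These are the pairs of listed cytidines within 10 bases in CAVIN1, and the control table lists none of the 4. Position 42405001 had 2.53% and position 42404885 had 2.15%, again after TGF-β1 only. Position 42404816 was the cytidine in both tables, with 6.95% after TGF-β1 and 6.28% in control. Next to it, 21 bases further on, position 42404795 had 9.09% after TGF-β1 and was not listed in control. The authors' p-value at the shared cytidine was 3.15e-35 after TGF-β1 and 8.71e-28 in control.

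The 3′UTR of CAVIN1 had 5 listed positions after TGF-β1 and 0 in control. The nearest to the coding sequence, 42404155, had 2.76%, and position 42403893 had 2.49%. Position 42403722 had 4.50%, the highest of the 5, with an authors' p-value of 7.71e-199. Positions 42403363 and 42403180 had 1.08% and 1.67%, close to the lower limit of the tables. The 3′UTR positions after TGF-β1 had a median of 2.49% and the coding ones 3.07%, with ranges that overlap (1.08 to 4.50% and 1.34 to 10.4%). Low p-values were the rule in this gene. The highest of the 17 after TGF-β1 was 1.63e-07, a value that 40.4% of all TGF-β1 positions reach or go below, and the highest of the 2 in control was 6.21e-07, reached by 28.5% of control positions. The p-value did not follow the level alone, since after TGF-β1 the authors' value was 2.05e-50 for 1.45% at position 42422863 and 3.15e-08 for 1.34% at position 42422790.

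**Figure D2:**
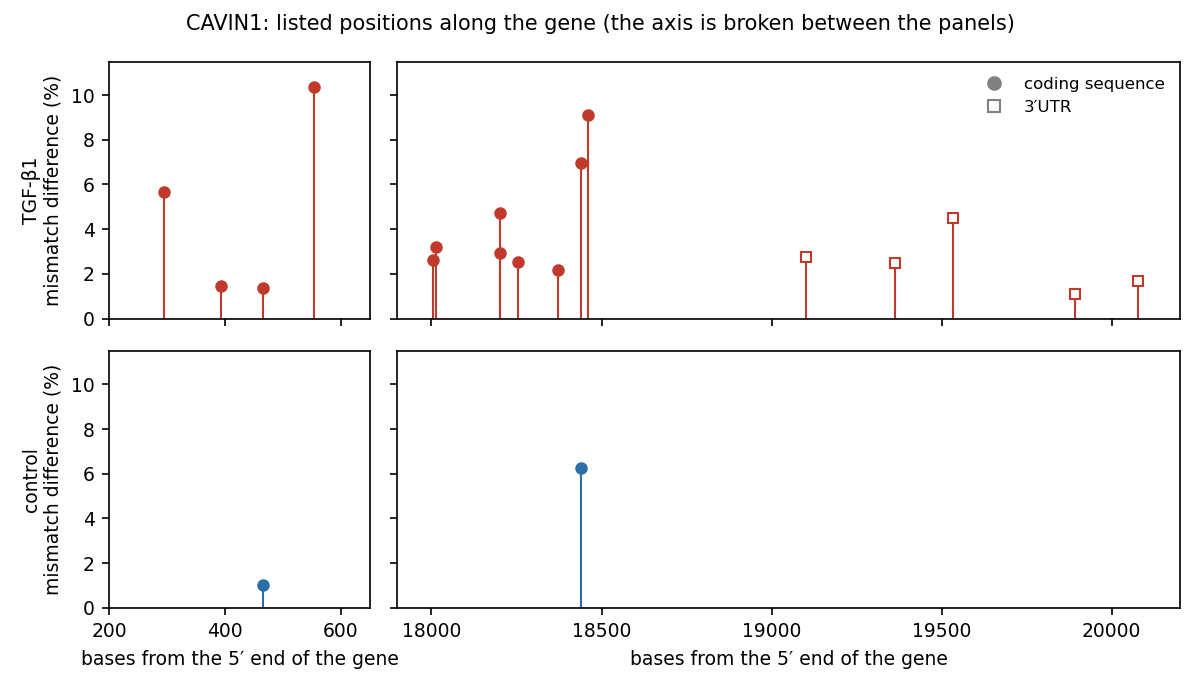
Each stem is a listed position of CAVIN1, placed by its distance in bases from the 5′ end of the gene (horizontal axis, broken between the left and right panels), with its height the mismatch difference in percent; the upper row is TGF-β1 and the lower row control, filled circles are coding sequence and open squares 3′UTR. The upper row holds 4 stems on the left and 13 on the right, and the lower row 1 on each side, at places that are also listed after TGF-β1.

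The other cavin genes had few listed positions. CAVIN2 encodes cavin-2, also known as SDPR, which helps to shape the membrane. The gene (ENSG00000168497, chromosome 2, minus strand) had 0 positions after TGF-β1 and 1 in control, a coding cytidine at 191836664 with 3.24%. CAVIN3 encodes cavin-3, also known as PRKCDBP, a protein kinase C delta binding protein. The gene (ENSG00000170955, chromosome 11 from 6318946 to 6320532, minus strand) had 3 positions after TGF-β1 and 1 in control, and none of them was shared. After TGF-β1 the coding cytidines 6319440, 6319411 and 6319269 had 9.03%, 3.50% and 2.64%. In control the listed cytidine was 6320498 in the 5′UTR, 34 bases from the 5′ end of the gene, with 2.29%. The CAVIN3 positions thus lay in the later part of the gene after TGF-β1 and at its start in control. The authors' p-value was exactly 0 at all 3 CAVIN3 positions after TGF-β1, as at 11.0% of all TGF-β1 positions and 8.04% of all control positions. With such positions left out, CAVIN3 had 0 after TGF-β1 and 1 in control.

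EHD2 stood next to CAVIN1 in the number of positions, and held the highest value of the group. The gene (ENSG00000024422, chromosome 19 from 47713422 to 47743134, plus strand) had 10 positions after TGF-β1 and 1 in control. The TGF-β1 table held 90.9% of these listings (exact 95% binomial interval 58.7 to 99.8%), and 1.03% of all listed genes had at least 9 more positions after TGF-β1, as EHD2 did. Chromosome 19 as a whole had 1368 positions after TGF-β1 and 608 in control, a ratio of 2.25, with 1.45 over all positions. For the other members' chromosomes the ratio was 1.66 on chromosome 17 (CAVIN1), 1.75 on chromosome 22 (PACSIN2) and 1.59 on chromosome 11 (CAVIN3). It was 1.47 on chromosome 7 (CAV1) and 1.15 on chromosome 2 (CAVIN2). In the first group of EHD2 positions, all coding, 47716704 had 3.48%, 47716818 had 49.1% and 47716916 had 6.70% after TGF-β1. The value of 49.1% was above 99.7% of all TGF-β1 positions, while the listed cytidines 114 bases before and 98 bases after it were above 34.8% and 66.5% of them. That position was not listed in control.

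The second group of EHD2 positions held its shared cytidine. Position 47725889 had 4.25% and position 47725972 had 8.25% after TGF-β1 only, and position 47726194 had 5.09% after TGF-β1 and 1.91% in control. Towards the 3′ end the values were low, with 2.30% at 47741028 and 1.52% at 47741102 in coding sequence and 1.63% at 47741825 in the 3′UTR. The last position, 47743001 in the 3′UTR, had 4.78%, and all 4 were listed after TGF-β1 only. The authors' p-value of 0.0355 at position 47741102 was the highest among the members after TGF-β1, and that of position 47716704 was exactly 0.

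PACSIN2 had the most even counts among the listed members with several positions. The gene (ENSG00000100266, chromosome 22 from 42835412 to 43015149, minus strand) had 6 positions after TGF-β1 and 4 in control, of which 3 were in both tables. Position 42891136 had 9.37% after TGF-β1 and 5.37% in control, position 42890992 had 3.94% and 2.16%, and position 42876917 had 3.57% and 3.03%, all in coding sequence. The other coding cytidines went to a table each, with 9.91% at position 42884472 after TGF-β1 and 6.88% at position 42876321 in control. The 3′UTR cytidines 42871345 and 42871173 had 10.1% and 2.82% after TGF-β1 and were absent from control. Position 42876321 carried the highest value among the 11 control positions of the coat genes, with an authors' p-value of 8.18e-06. When the longer TGF-β1 list was limited to as many positions as the control list, lowest p kept, PACSIN2 had 4 in each.

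**Figure D3:**
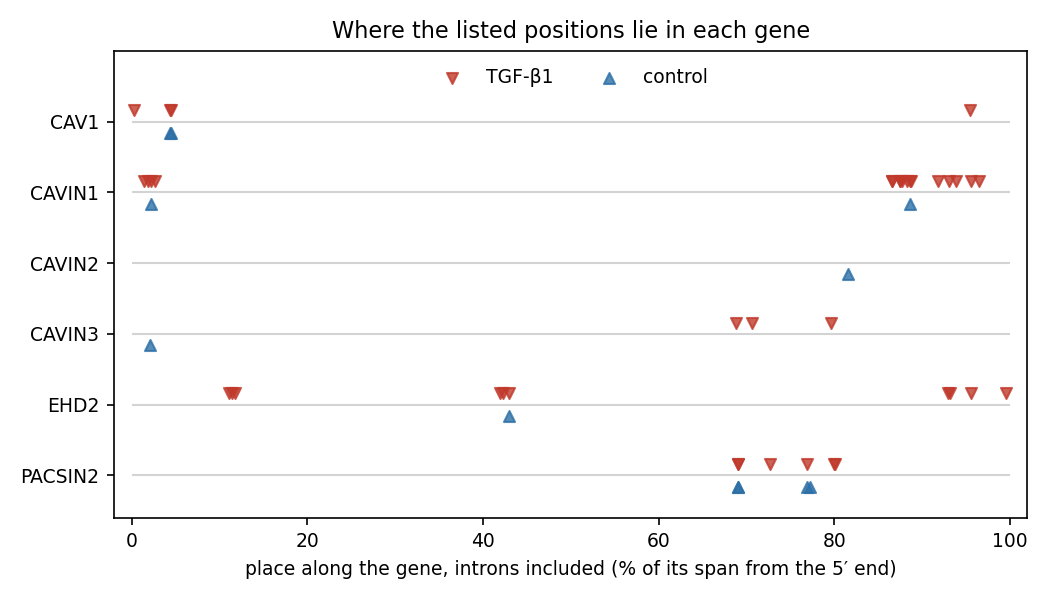
Triangles mark the listed positions of the 6 listed coat genes (rows) by their place along the gene in percent of its span from the 5′ end, introns included, with TGF-β1 in red above each line and control in blue below it. CAVIN1 positions after TGF-β1 sit in the first 2.66% and beyond 86.5% of the span, and CAVIN3 positions after TGF-β1 sit from 68.9% on while its control position is at 2.14%.

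By segment, 29 of the 40 member positions after TGF-β1 and 9 of the 11 in control lay in coding sequence, which is 72.5% and 81.8%, with 76.3% and 74.7% over all genes. The 3′UTR held 10 after TGF-β1 and 0 in control, and the 5′UTR 1 and 2, with 9.96% and 9.87% of all positions in 5′UTRs. In percent, 3′UTR positions were 25.0% of the members' list after TGF-β1, with 12.0% of all TGF-β1 positions and 12.6% of all control positions. CAVIN1 supplied 5 of the 10, EHD2 and PACSIN2 2 each and CAV1 1. None of the member positions was annotated to a further gene or to more than 1 kind of segment.

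The median level of the coat genes' cytidines lay below that of each table, after TGF-β1 in large part through CAVIN1. After TGF-β1 the 40 positions ran from 1.08 to 49.1% with a median of 3.64% (4.25% without CAVIN1), with a median of 4.68% over all TGF-β1 positions. In control the 11 positions ran from 1.02 to 6.88% with a median of 3.03%, with 4.05% over all control positions. The level reached 10% or more at 3 member positions after TGF-β1, in EHD2, CAVIN1 and PACSIN2, and at 0 in control. Over all genes 18.5% of TGF-β1 and 12.4% of control positions were that high. CAVIN1, with the most positions, had a median of 2.76% after TGF-β1, EHD2 had 4.51% and PACSIN2 6.65%. The values of the genes overlap, and between tables the members' ranges overlap as well.

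**Figure D4:**
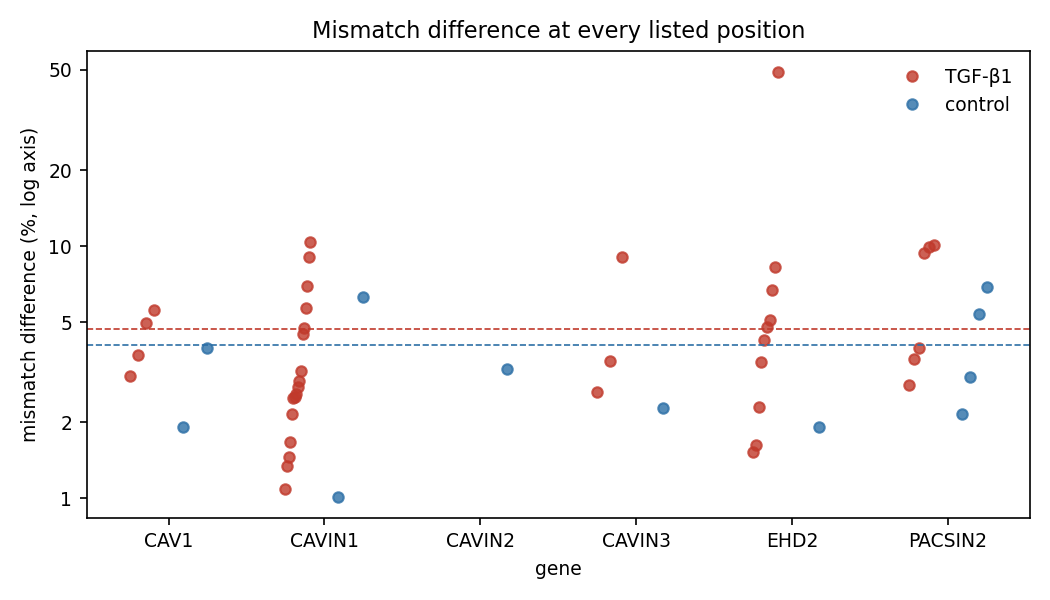
Points are the mismatch difference in percent (vertical log axis) of every listed position of the 6 listed coat genes (horizontal axis), TGF-β1 in red left of control in blue; dashed lines are the medians over all positions, 4.68% after TGF-β1 and 4.05% in control. Most CAVIN1 points after TGF-β1 lie below the red line, and the EHD2 point at 49.1% lies far above the rest.

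At the cytidines listed in both tables, all 7 had the higher mismatch difference after TGF-β1. Over all genes that was so at 78.4% of 1985 shared positions, so the members' count is read against a background that leans the same way. The differences ran from 0.33 to 3.99 percentage points with a median of 1.02 (1.78 without CAVIN1, and 2.33 at the 2 positions of 5% or more in both tables), and the median over all shared positions was 1.73. In CAVIN1, the member with the largest gain in number, they were 0.68 and 0.33 points, smaller than at most shared positions of the tables: 33.1% and 26.9% of these had a smaller difference. The larger ones were 3.99 points at PACSIN2 position 42891136 and 3.18 points at EHD2 position 47726194, with 73.8% and 67.1% of all shared positions below them. The authors' p-value was lower after TGF-β1 at 6 of the 7, and at 64% of the 1985 shared positions over all genes, with CAV1 position 116526587 the exception at 2.31e-08 after TGF-β1 and 1.42e-09 in control. The 7 shared positions were 17.5% of the members' TGF-β1 list and 63.6% of their control list, and over all genes shared positions were 16.9% of the TGF-β1 list and 24.5% of the control list.

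**Figure D5:**
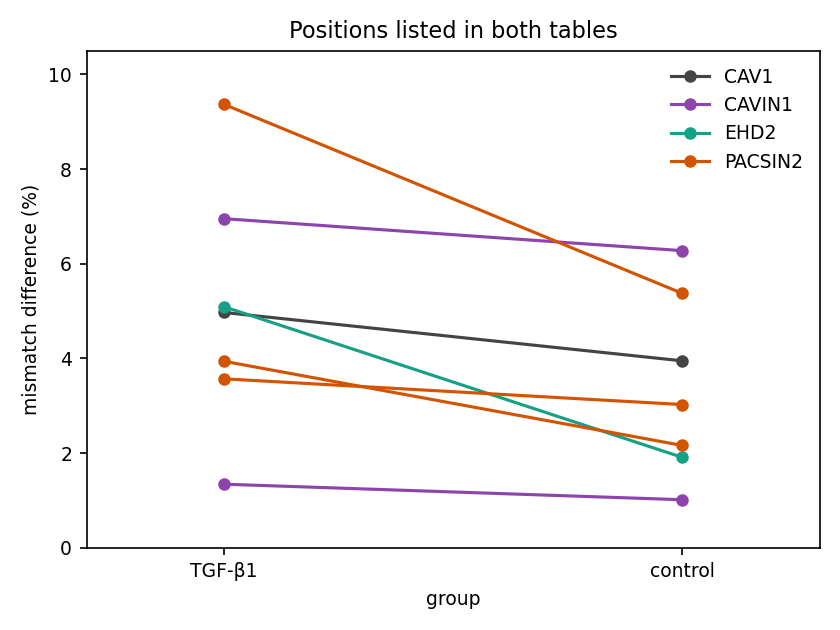
Lines join the mismatch difference (vertical axis, percent) after TGF-β1 on the left and in control on the right for the 7 member positions in both tables, coloured by gene. All lines are higher at TGF-β1, and the CAVIN1 lines are nearly level.

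Among the listed genes whose products work with caveolae, most had more cytidines listed with TGF-β1. Over all listed genes 51.2% had more, with a ratio of 1.46 and a median gain of 1. Of 20 partner genes 13 were listed, of which 11 had more, STOM had fewer and EHD4 had equal numbers, with 98 positions after TGF-β1 and 38 in control (ratio 2.58, median gain of 3 per listed gene). FLNA, the actin crosslinker filamin A that binds caveolin-1, had 33 after TGF-β1 and 11 in control, and DNM2, the fission GTPase dynamin-2, had 11 and 4. ANXA6, a calcium-dependent membrane-binding annexin, had 12 and 2. EHD1, a paralog of EHD2, had 9 and 3, PACSIN3, a paralog of PACSIN2, 7 and 5, and the kinase ABL1 7 and 3. With the lists at equal length, 7 partner genes had more, a count that was not made over all genes. The muscle forms CAV3 and CAVIN4 were not listed. FLNA alone supplied 33 of the 98 positions after TGF-β1 and 11 of the 38 in control.

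Genes of the clathrin coat, the other main coat of the plasma membrane, had a ratio closer to the whole table than the 7 caveolae coat genes together. Over all listed genes 51.2% had more and 35.3% had fewer, with a ratio of 1.46 and a median gain of 1. Of 20 genes 18 were listed, 10 with more, 6 with fewer and 2 with equal numbers, and their positions numbered 47 after TGF-β1 and 27 in control (ratio 1.74, median gain of 1). AP2M1, the adaptor subunit that reads cargo signals, and EPN1, the membrane-bending epsin-1, each had 9 after TGF-β1 and 3 in control. HIP1R, a link to actin, had 5 and 3, and CLTC, the clathrin heavy chain, 3 and 2. AP2A1, an adaptor subunit, had 4 and 0, and AP2B1, another, 2 and 2. With the lists at equal length, 6 clathrin genes had more. Without CAVIN1 and EHD2 the caveolae coat genes had 13 positions after TGF-β1 and 8 in control, a ratio of 1.63, below that of the clathrin genes. The difference between the clathrin genes and the caveolae genes was not tested.

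The genes closest to CAVIN1 in both numbers were PHLDB1 with 17 positions after TGF-β1 and 2 in control, TNIP1 with 16 and 2, LMNB2 with 17 and 4, NIBAN2 with 15 and 2, and AEBP1 with 18 and 4. The measure was the sum of the absolute differences in the 2 counts, from 0 for PHLDB1 to 3 for AEBP1, over the 2 groups. The cytidines shared between tables numbered 2 in PHLDB1, TNIP1 and LMNB2, 1 in NIBAN2 and 3 in AEBP1. These numbers cannot exceed the control counts of 2 to 4, by which the genes were picked. PHLDB1 encodes a pleckstrin homology protein of the cell cortex, TNIP1 a restrainer of NF-κB signalling, LMNB2 a nuclear lamin and AEBP1 a secreted collagen-binding protein.

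Of 10 markers of stellate cells or myofibroblasts 7 were listed, with 32 positions after TGF-β1 and 11 in control, while COL1A2, DES and LRAT were at 0 in both tables. Markers of hepatocytes (7 genes) and endothelial cells (5 genes) were at 0 in both. Of 5 macrophage markers only CD68 was listed, with 2 after TGF-β1 and 3 in control, and of 4 cholangiocyte markers only SOX9, with 0 and 1. A listing shows that a transcript was read at that cytidine, and its absence does not show that the gene was silent.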

How the data were processed

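NaBH4-treated polyadenylated RNA of LX-2 cells was sequenced in 4 libraries, 2 with TGF-β1 and 2 untreated. The submitters' processing notes name the build hg38 and the tools fastp 0.23.1, featureCounts and STAR 2.7.6a. Which program called the positions, with which filters, and how the replicates were pooled is not given in the sources used here. For each group there is 1 deposited table. Per the file headers, the deposited diff column holds a fraction, here the mismatch difference in percent, and the deposited p-value column stays below 0.05, its test and adjustment unstated. Depth per sample is unknown, so no value has a counting interval or replicate error.

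Lines were merged to 1 per position and gene (Python 3.11.15, pandas 2.3.3, SciPy 1.17.1). The end coordinate was used as the 1-based position and checked against RefSeq promoter windows, which hold 250 bases before and 50 after a gene's start: all 213 positions after TGF-β1 and all 155 control positions in them were C. Shared positions have the same chromosome, base and strand. Shares have exact Clopper-Pearson 95% intervals. As planned for tables with 1 value per group, no test was run. Counting and pairing were tested on simulated data.

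The members and the lists (caveola partners, clathrin coat, cell type markers) were chosen with earlier results of these data known. Named were all members and their positions, up to 6 genes of each of the partner and clathrin lists with most positions, the 5 genes nearest to CAVIN1 in both counts, and further list members chosen after their values were seen. Alternatives changed the limits on p and on level, the length of the TGF-β1 list, the segments used and the merging of close positions.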

Additional observations from a re-analysis of the deposited data

How the results depend on the processing

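Under 9 other settings the TGF-β1 share of CAVIN1 listings ran from 80.0 to 92.9%, against 89.5% as reported. Several of these settings could not remove a CAVIN1 position. Its highest authors' p-value was 1.63e-07 after TGF-β1 and 6.21e-07 in control, so the limits on p left all its positions in. So did limiting the TGF-β1 list to as many positions as the control list, lowest p kept. No CAVIN1 position had a p of exactly 0 or a further gene, so leaving out such positions changed nothing either. The share of all members ran from 71.9 to 87.2% over the 9 settings and 2 chosen after seeing the data, without CAVIN1 and without EHD2. The highest came with p below 0.001, with 34 positions after TGF-β1 and 5 in control. The share over all genes can move with the limits and was not counted under them. The 59.3% over all genes without further limits is thus no background for this range. All shared member positions were higher after TGF-β1 in each setting. Where a setting only left positions out, no other result was possible, since all 7 were higher to begin with. Counting positions within 5 bases as shared could add pairs, and 8 of 8 were then higher. A gain in the number of listed positions was seen in 4 or 5 members, depending on the setting. The median difference at shared positions was 2.33 points at the 2 of at least 5%, and 1.78 points without CAVIN1, against 1.02. With the TGF-β1 list limited to the control length, 7 partner genes (11 as reported) and 6 clathrin genes (10 as reported) had more positions after TGF-β1. The share of all genes with more under that limit was not counted. CAVIN3 turned round without positions of p exactly 0: its TGF-β1 share was then 0%, with 0 positions after TGF-β1 and 1 in control. The CAV1, CAVIN3 and EHD2 shares went to 100% under 1, 3 and 3 settings, since these left no control position, and CAVIN2 had no position left under 2. No paired analysis was possible because the tables hold 1 value per group, and leaving out a replicate was not run for the same reason. Depth and transcript level limit every count here and were not available as values.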
